A study of Mus musculus with 192 samples.

Results

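Proteasome genes were taken by symbol: 50 of the 21397 protein-coding genes in the deposited count table carry, in GENCODE vM21, one of the stems Psma to Psmg with a number behind it. By role, 31 of them are the constitutive subunits of the 26S particle, here called core subunits: 7 of the 20S alpha ring, 3 catalytic and 4 structural subunits of the beta ring, 6 ATPases and 3 other subunits of the 19S base, and 8 subunits of the 19S lid. The 3 immunoproteasome genes Psmb8, Psmb9 and Psmb10 were kept apart. The remainder are 5 activators (Psme1, Psme2, Psme2b, Psme3, Psme4), the inhibitor Psmf1, 3 chaperones of 19S assembly (Psmd5, Psmd9, Psmd10), 4 chaperones of 20S assembly (Psmg1 to Psmg4), the testis subunit Psma8, the thymus subunit Psmb11, and Psmc3ip, a meiotic recombination factor that carries the stem only because its protein binds Psmc3.

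The proteasome is the barrel-shaped protease that degrades ubiquitin-tagged proteins. Its 20S core has outer alpha rings that gate entry and inner beta rings with the caspase-like (Psmb6), trypsin-like (Psmb7) and chymotrypsin-like (Psmb5) sites, and the 19S cap recognises, unfolds and feeds in substrates with ATPases of the Psmc family. Interferon replaces the catalytic subunits by Psmb9, Psmb10 and Psmb8, and induces Psme1 and Psme2, which form the PA28 ring, an alternative cap linked to the making of antigenic peptides. In Huntington's disease, mutant huntingtin accumulates in ubiquitin-positive inclusions, and proteasome subunits are found in them.

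The libraries are polyA-selected RNA from the hippocampus of 192 mice in 24 groups of 8, with 4 females and 4 males in each. In 12 groups the mice were wild type (WT), and in 12 they were zQ175, a knock-in strain that carries an expanded CAG repeat in the mouse Htt gene; the labels give neither zygosity nor genetic background. Mice were untreated, received a small interfering RNA (siRNA) without a target (NTC), received HTT-10150, an siRNA against full-length HTT, or received HTT-634 and HTT-486 together (labelled HTT-634.486), a pair aimed at HTT1a, a truncated Htt transcript whose polyA site lies in intron 1. In regimen 2[4]6, dosing was at 2 months and collection at 6 months of age; in 6[4]10 the ages were 6 and 10 months; in 2.6[8]10 mice were dosed at both 2 and 6 months and collected at 10 months. All 50 genes were measured in each of these groups, and none of them is an intended target of an siRNA.

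Total counts per library, in mega-counts (M), ran from 8.44 M to 56 M in 2[4]6, from 13.4 M to 41.3 M in 6[4]10 and from 13 M to 65.7 M in 2.6[8]10, and the 50 genes took a median of 0.305, 0.303 and 0.305 percent of them. Htt was lower with HTT-10150 than with NTC by 0.44 to 1.27 on the log2 scale in the 6 comparisons, of which 5 passed the test (adjusted p = 0.16 in WT of 6[4]10), and stood within 0.10 of NTC with HTT-634.486. Highest Htt values with HTT-10150 were 171.2, 158.3 and 177 CPM in zQ175 of 2[4]6, zQ175 of 6[4]10 and WT of 6[4]10. The lowest NTC values there were 122.5, 121.9 and 152.3 CPM, so these HTT-10150 and NTC ranges overlapped. In the other groups given HTT-10150, every mouse lay below every NTC mouse of its genotype and regimen. Some libraries stood apart. In 3, sex-linked transcripts went against the labelled sex (female_2 of WT NTC in 2.6[8]10; female_4 and male_4 of zQ175 HTT-10150 in 6[4]10). In the library labelled female_1 of WT HTT-10150 in 2.6[8]10, 4 of 6 hippocampal markers lay far below every other library (Neurod6 3.15 CPM against 82.7 to 268) and the striatal gene Penk far above (1388 CPM against 3.50 to 58.8). In 2.6[8]10, 9 libraries had 42.8 to 54.1 CPM of Ndufc2, a subunit of respiratory complex I, and the other 55 had 70.0 to 104.9. These 9 carry 3 of the numbers in the library names, which 1 other library of the regimen shares; what the number stands for is not stated. Where leaving out a set ends a member's call, both values are given. CPM is a gene's count per M of the library's total, with TMM factors over all 192 libraries. As this is bulk tissue, fewer cells of a type and less RNA per cell cannot be told apart.

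The windows printed here run from 230 bases before to 20 after the RefSeq start (GRCm38.p6). They belong to the PA28 pair, the catalytic subunits Psmb5 and Psmb6, and the immunoproteasome subunit Psmb8, which no comparison called. No window is printed for Psmd1 and Psma1. The Psme1 and Psmb8 windows begin inside the GENCODE genes used for counting, which start at 55578123 and 34197721. Capitals mark matches, on either strand, to the interferon-response core GAAANNGAAA, the gamma-activated site TTCNNNGAA or the antioxidant-response core TGACNNNGC, which is also read by the Nrf family factor that drives proteasome genes.
Psme1, chr14:55578264-55578513, plus strand: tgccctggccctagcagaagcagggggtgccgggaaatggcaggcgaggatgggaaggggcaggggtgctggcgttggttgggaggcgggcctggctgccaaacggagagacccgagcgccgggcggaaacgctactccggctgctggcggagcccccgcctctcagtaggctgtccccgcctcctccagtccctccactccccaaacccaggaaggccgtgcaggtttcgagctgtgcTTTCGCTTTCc
Psme2, chr14:55591082-55591331, minus strand: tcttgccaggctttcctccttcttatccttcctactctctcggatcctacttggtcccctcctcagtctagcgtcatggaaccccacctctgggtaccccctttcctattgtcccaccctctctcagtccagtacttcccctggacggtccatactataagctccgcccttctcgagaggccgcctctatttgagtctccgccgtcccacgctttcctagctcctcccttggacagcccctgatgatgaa
Psmb5, chr14:54617976-54618225, minus strand: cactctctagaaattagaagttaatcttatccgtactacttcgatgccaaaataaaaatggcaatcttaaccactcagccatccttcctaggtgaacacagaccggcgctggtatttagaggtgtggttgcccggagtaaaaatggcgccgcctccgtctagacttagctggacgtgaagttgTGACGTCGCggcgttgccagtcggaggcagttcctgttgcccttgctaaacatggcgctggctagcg
Psmb6, chr11:70525127-70525376, plus strand: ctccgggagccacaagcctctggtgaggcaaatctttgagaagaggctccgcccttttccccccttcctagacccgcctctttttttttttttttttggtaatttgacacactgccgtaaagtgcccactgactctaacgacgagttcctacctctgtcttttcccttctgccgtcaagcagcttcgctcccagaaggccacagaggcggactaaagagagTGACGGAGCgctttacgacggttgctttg
Psmb8, chr17:34197965-34198214, plus strand: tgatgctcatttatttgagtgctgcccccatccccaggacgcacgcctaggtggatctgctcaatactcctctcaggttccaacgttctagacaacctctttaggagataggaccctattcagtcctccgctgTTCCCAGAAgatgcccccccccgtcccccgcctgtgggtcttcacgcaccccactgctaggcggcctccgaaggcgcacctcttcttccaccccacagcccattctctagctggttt
The match in Psme1 is an interferon-response core on the opposite strand that begins 9 bases downstream of the start, Psmb5 and Psmb6 hold antioxidant-response cores at -47 and -9, Psmb8 holds a gamma-activated site at -97, and the Psme2 window holds none of these letters. RefSeq windows from 250 bases before to 50 after the start were found for 42 of the 50 genes (not for Psma8, Psmb1, Psmb2, Psmb7, Psmc3, Psmd3, Psmd7 and Psmg2). Of these, 5 (11.9 percent: Psmb3, Psmd4, Psmd9, Psme1, Psmg4) held the interferon-response core, against 3.49 percent of 27025 promoters. The gamma-activated site was in 3 (7.14 percent, against 8.47), the antioxidant-response core in 6 (14.3 percent, against 12.5), CCAAT in 15 (35.7 percent, against 37.9) and the GC box GGGCGG in 23 (54.8 percent, against 35.9). No capitalised match overlaps one of another motif. A match describes letters only.

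Set against exon length, levels of core subunits differed widely in the 24 untreated WT mice. The base ATPase Psmc5 was highest at 95.4 ± 4.75 CPM per kb of exon (SD, n = 24), followed by the catalytic subunit Psmb5 at 92.3 ± 6.76 and the ATPase Psmc1 at 76.6 ± 3.53. The lid subunit Psmd11 was lowest of the core at 9.27 ± 0.505. By role, medians per kb were 41.03 for the ATPases, 36.2 for the catalytic and 27.9 for the structural beta subunits, 29.2 for the other base subunits, 23.4 for the alpha ring and 22.4 for the lid. Union exon length is not the length of the transcripts present, so these levels rank genes only roughly.

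Below the core stood the assembly chaperones, with medians of 6.72 CPM per kb for the 20S set (Psmg1 to Psmg4) and 5.09 for the 19S set. Among activators, the nuclear cap Psme3 (33.96 per kb) exceeded Psme1 (13.8), Psme2 (9.23) and Psme4 (5.95), which encodes PA200. The inhibitor Psmf1 was at 4.15 per kb. Immunoproteasome subunits were low: 10.9 per kb for Psmb10, 0.920 for Psmb8 and 0.424 for Psmb9. Psma8 and Psmb11 averaged 0.249 and 0.175 CPM over all libraries, and the filter on low counts dropped Psmb11 in every regimen and Psma8 in 6[4]10 and 2.6[8]10, which left 49, 48 and 48 of the 50 genes tested. Psme2b, a retrocopy of Psme2, had 0.375 CPM; reads shared between the copies could be split, so values of both are uncertain.

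Core subunits varied less between mice of a group than the median tested gene. Their median residual SD on the log2 scale was 0.07, 0.08 and 0.07 in 2[4]6, 6[4]10 and 2.6[8]10. The median over all tested genes was 0.13, 0.14 and 0.15. Core subunits averaged 44.3 to 198 CPM, and they were not compared with genes matched for level. Summed over the 31 core subunits, group means ran from 2597 CPM (untreated WT of 6[4]10) to 2774 CPM (zQ175 NTC of 2[4]6). After group and sex were taken out, the mean pairwise correlation of core subunits over the 64 libraries of a regimen was 0.34, 0.39 and 0.25. It was 0.55, 0.62 and 0.51 for cytosolic ribosomal proteins, 0.43, 0.45 and 0.31 for oxidative phosphorylation genes, and 0.003, 0.002 and 0.003 for all genes. These describe libraries that share depth and composition, and no test was made.

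The first comparison, zQ175 against WT in untreated mice, asked what the knock-in allele does to proteasome transcripts. Core subunits changed little, and the largest increase called in each regimen was that of a PA28 gene. Of 49 genes tested in 2[4]6, only Psme2 rose (edgeR quasi-likelihood test, Benjamini-Hochberg adjusted p under 0.05, used throughout), against 4.15 percent of all genes called. In 6[4]10, 2 of 48 rose (Psme1 and Psmd3; 11.5 percent of all genes called). In 2.6[8]10, 4 of 48 rose (Psme1, Psmd1, Psma1, Psmd2) and 2 fell (Psmb5, Psmg4), that is 12.5 percent, close to the 11.1 percent of all genes. Genes other than Psme1 in this list fall outside the rule for named genes and are given because they are few.

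**Figure D1:**
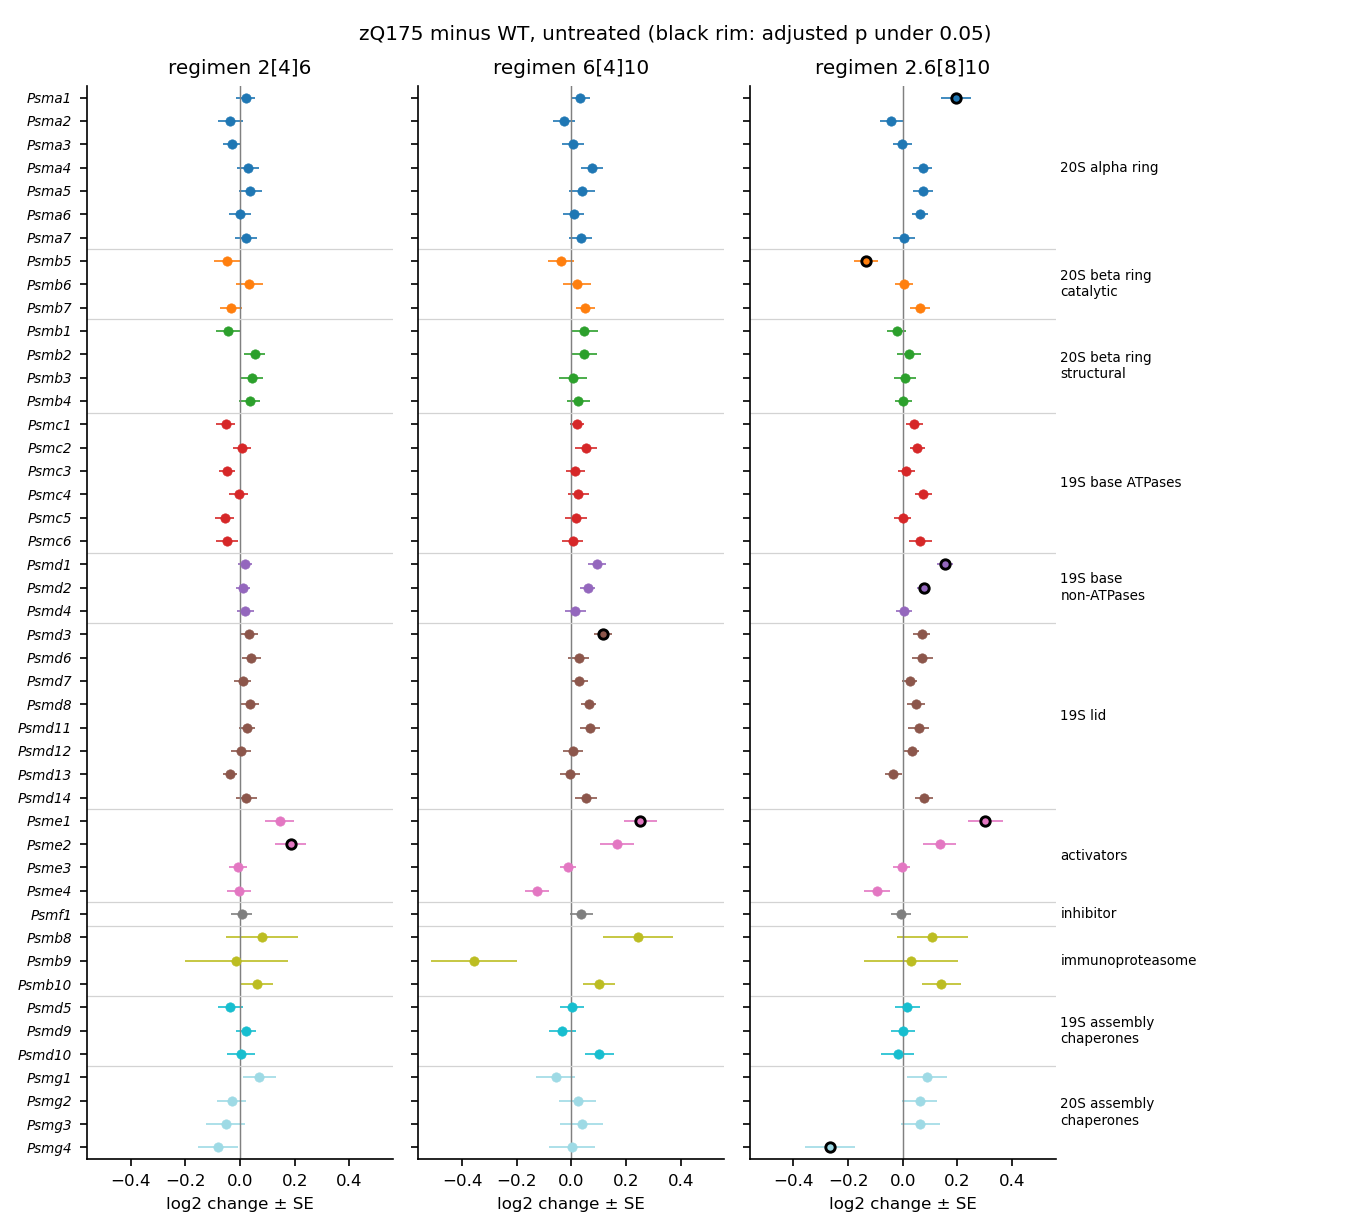
Log2 change (zQ175 minus WT, x axis) with its SE in untreated mice for 46 proteasome genes grouped by role (y axis), 1 panel per regimen; Psma8, Psmb11, Psme2b and Psmc3ip are not drawn. Core subunits lie between -0.14 and 0.19, Psme1 is at 0.145, 0.25 and 0.30, and black rims mark the calls.

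Over the 31 core subunits, the median change was 0.01 (range -0.06 to 0.05) in 2[4]6, 0.03 (-0.04 to 0.12) in 6[4]10 and 0.04 (-0.14 to 0.19) in 2.6[8]10, with a median SE of 0.04, 0.04 and 0.03. The 95% interval of every core subunit stayed within 0.14, 0.18 and 0.30 log2 units of 0. Over all genes tested, the median change was 0.0023, 0.0096 and 0.0015. The ATPases of the base showed -0.05, 0.02 and 0.05 as medians, the lid 0.03, 0.04 and 0.05, and the alpha ring 0.02, 0.03 and 0.06.

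Psmd1, the large scaffold subunit of the base, had the smallest adjusted p among core subunits. In untreated mice of 2.6[8]10 it had 129.7, 133.1 and 136.9 CPM (lowest, median and highest of 8) in zQ175 and 110.4, 118.6 and 128.9 in WT. No zQ175 value reached down to the WT range. The means were 133.4 ± 2.39 and 119.4 ± 5.57 CPM (SD, n = 8 each), a log2 change of 0.15 ± 0.03 (SE; adjusted p = 4.96e-05). In untreated 6[4]10 mice Psmd1 changed by 0.09 ± 0.03 (adjusted p = 0.0623) and in 2[4]6 by 0.02 ± 0.02 (adjusted p = 0.824). Under NTC, HTT-10150 and HTT-634.486 in 2.6[8]10, changes of the 3 base subunits outside the ATPases reached at most 0.08, 0.04 and 0.03, with none called. The untreated WT mice of 2.6[8]10 were also lower in Psmd1 than those of 2[4]6 (128.3 ± 4.69 CPM, log2 change -0.09, adjusted p = 0.0284). The other called base subunit, the scaffold subunit Psmd2, went from 196.1 ± 5.08 to 207.6 ± 6.98 CPM in 2.6[8]10 (log2 change 0.08, adjusted p = 0.0195), with 6 of 8 zQ175 mice above all WT mice. Psmd3, a lid subunit, had 111.8, 121.1 and 129.9 CPM in zQ175 and 108.5, 112.5 and 113.4 in WT of 6[4]10 (0.12, adjusted p = 0.017, 7 of 8 mice above all WT). The Psmd2 and Psmd3 calls were each lost when the mice numbered 1, 2 or 3 were left out of every group.

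Psmb5, which carries the chymotrypsin-like site, fell in 2.6[8]10 from 88.7 ± 4.80 to 80.99 ± 3.89 CPM (-0.135 ± 0.04 log2, adjusted p = 0.0301, 5 of 8 zQ175 mice below all WT). Psmg4, a 20S assembly chaperone, fell from 6.76 ± 0.792 to 5.64 ± 0.936 CPM (-0.27 ± 0.09, adjusted p = 0.0462, 7 of 8 mice below). Both calls were lost without the 9 libraries of low Ndufc2 (adjusted p = 0.0921 and 0.167), although the changes kept their sign (-0.12 and -0.24). Without that set the regimen had 4 genes called higher (Psmd1, Psma1, Psme1, Psmd2) and none lower. Without the library low in hippocampal markers, which enters the shared estimate of spread, 7 rose and 2 fell, with Psmc4, Psmb10 and Psmd3 as the additions. The share of all genes called was not worked out for either leave-out, so nothing is read from these counts.

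Psma1, an alpha ring subunit, differed between the same sets of libraries. In 2.6[8]10 the 9 libraries of low Ndufc2 had 73.2 to 81.5 CPM of Psma1 (median 76.1) and the other 55 had 52.5 to 70.8 (median 63.5), so the sets did not overlap. In 2[4]6 and 6[4]10 the medians were 75.5 and 75.5 CPM. Untreated zQ175 mice of 2.6[8]10 held 2 such libraries and untreated WT mice held 0. Their Psma1 levels were 62.6, 70.2 and 79.9 CPM (lowest, median, highest) in zQ175 and 52.5, 61.0 and 65.8 in WT, with 5 of 8 zQ175 mice above all WT. The log2 change was 0.19 ± 0.05 (adjusted p = 0.0121), and without the 9 libraries it was 0.15 ± 0.03 (adjusted p = 0.00162). It lost its call without the mice numbered 1 (adjusted p = 0.055).

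**Figure D2:**
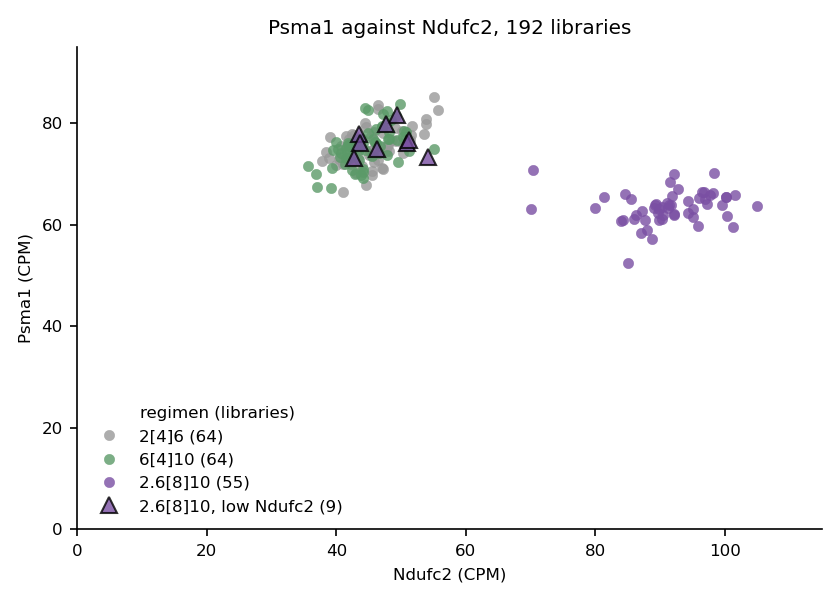
Psma1 (y axis, CPM) against Ndufc2 (x axis, CPM) in the 192 libraries, coloured by regimen. The 9 triangles are libraries of 2.6[8]10 that lie with those of the other regimens, at 73.2 to 81.5 CPM of Psma1, and the other 55 libraries of that regimen lie apart at 52.5 to 70.8.

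Psme1 (ENSMUSG00000022216; GRCm38 chr14:55578123-55581529, plus strand), the alpha subunit of the PA28 ring, was called higher in zQ175 in more comparisons than any other proteasome gene. Untreated mice of 2[4]6 had 27.8, 32.4 and 37.6 CPM (lowest, median, highest of 8) in zQ175 and 27.9, 28.95 and 33.8 in WT. These ranges overlapped. In 6[4]10 the values were 32.9, 35.9 and 40.3 against 28.5, 30.3 and 31.7, and in 2.6[8]10 they were 36.2, 38.7 and 44.7 against 29.6, 31.1 and 35.5. In both of the 10-month regimens every zQ175 mouse lay above every WT mouse. The log2 changes were 0.145 ± 0.05 (adjusted p = 0.132), 0.25 ± 0.06 (adjusted p = 0.00258) and 0.30 ± 0.06 (adjusted p = 0.000629). Between regimens these effects did not pass a test of their difference: 2.6[8]10 minus 2[4]6 gave 0.16 ± 0.08 (95% interval -0.004 to 0.33, adjusted p = 0.786).

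Under NTC, Psme1 rose in all 3 regimens, from 30.2 ± 3.04 to 37.1 ± 2.40 CPM in 2[4]6 (0.29, adjusted p = 0.000286, 8 of 8 mice above all WT), from 31.2 ± 2.01 to 37.5 ± 2.72 in 6[4]10 (0.27, adjusted p = 0.00108) and from 33.3 ± 3.26 to 38.8 ± 3.55 in 2.6[8]10 (0.22, adjusted p = 0.0182, with 1 of 8 mice above all WT). The last call was lost without the 9 libraries of low Ndufc2 (0.19, adjusted p = 0.0718). Under the active siRNAs, a comparison added after the data had been seen, Psme1 rose by 0.33 with HTT-10150 and 0.35 with HTT-634.486 in 6[4]10 (adjusted p = 6.11e-05 and 2.97e-05) and by 0.23 and 0.23 in 2.6[8]10 (adjusted p = 0.0152 and 0.0358). In 2[4]6 it changed by 0.14 and 0.16 (adjusted p = 0.119 and 0.107). The mean was thus higher in zQ175 in 12 of 12 comparisons, and 9 were called. The library-name number could not serve as a block here, as WT and zQ175 mice share none. Across the 11 alternatives of each, the change stayed between 0.089 and 0.395 with no change of sign. Of the 9 calls, 4 held under all of them, and all 5 others were lost when mice of 1 number were left out (highest adjusted p = 0.311).

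**Figure D3:**
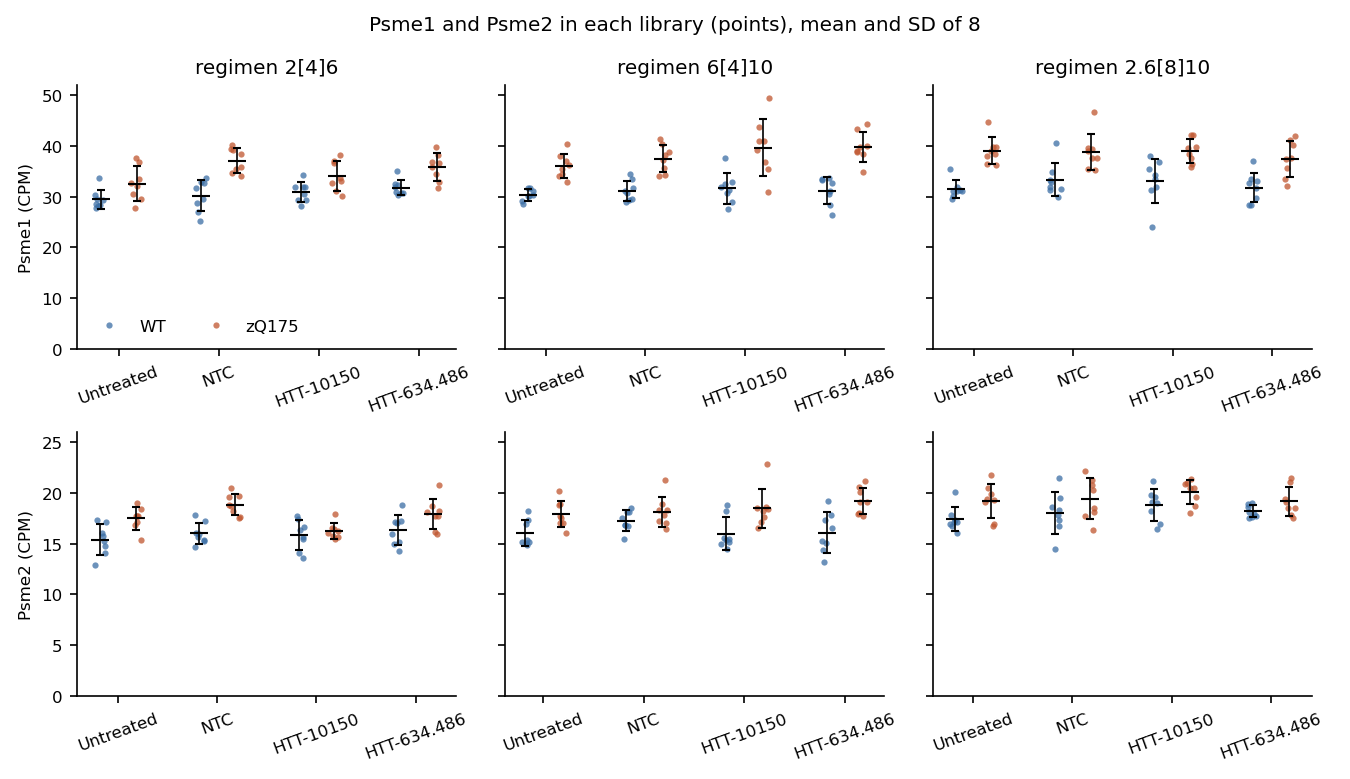
CPM (y axes, from 0) of Psme1 (upper row) and Psme2 (lower row) in each library by treatment (x axis) and genotype, 1 column per regimen; bars are the mean and SD of 8. Psme1 means lie at 29.5 to 33.3 CPM in the 12 WT groups and at 32.6 to 39.8 CPM in the 12 zQ175 groups.

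Psme2 (chr14:55587441-55591113, minus strand), the beta subunit of the same ring, lies near Psme1. Untreated mice of 2[4]6 had 15.4, 17.7 and 19.02 CPM in zQ175 and 12.9, 15.5 and 17.3 in WT, with 5 of 8 zQ175 mice above all WT. That is a log2 change of 0.185 ± 0.06 (adjusted p = 0.0397), lost without the filter on low counts or without the mice numbered 1, 2 or 3. Changes of 0.17 and 0.14 for Psme2 in untreated mice of 6[4]10 and 2.6[8]10 did not pass (adjusted p = 0.0673 and 0.143). Psme2 was called higher in 3 further comparisons: under NTC in 2[4]6 (0.225, adjusted p = 0.0077) and under HTT-10150 and HTT-634.486 in 6[4]10 (0.21 and 0.25, adjusted p = 0.0131 and 0.00359). The residuals of the pair correlated at 0.34, 0.54 and 0.41 over the 64 libraries of the regimens. Psme4, another activator, showed the opposite sign: it fell under HTT-10150 and HTT-634.486 in 6[4]10 (-0.15 each, adjusted p = 0.0122 and 0.0133), and in untreated and NTC mice of that regimen the changes were -0.13 and -0.12 (adjusted p = 0.0512 and 0.0554).

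The same contrast of genotypes was made within each treatment. With NTC, 3 of 49 genes rose in 2[4]6 (Psme1, Psme2, Psmb10; 5.23 percent of all genes called), 2 of 48 in 6[4]10 (Psme1 and Psmd1; 14.7 percent) and 1 of 48 in 2.6[8]10 (Psme1; 10.4 percent). Without the library low in hippocampal markers, 3 rose there (Psmd1, Psmd3, Psme1) and Psmb5 fell. The share of all genes called without that library was not worked out. With HTT-10150, Psmd1 rose in 2[4]6 (0.085, from 129.3 ± 3.48 to 137.6 ± 5.10 CPM; 1 of 49 genes, 6.59 percent of all genes called). In 6[4]10, 5 of 48 rose (Psme1, Psme2, Psmb10, Psmd3, Psmb2) and Psme4 fell (15.3 percent). Psmb2, a structural beta subunit, was near the threshold (0.13, adjusted p = 0.0492); without the 3 libraries of mismatched sex, 2 of them in this zQ175 group, it changed by 0.12 (adjusted p = 0.113), and with other size factors the call was lost too (adjusted p = 0.0513). In 2.6[8]10 Psme1 rose and the ATPase Psmc5 fell (-0.10, adjusted p = 0.0253; 9.11 percent). The Psmc5 call was lost without the library low in hippocampal markers (-0.08, adjusted p = 0.118) and without the 9 libraries of low Ndufc2 (-0.08, adjusted p = 0.16). With HTT-634.486, none of 49 was called in 2[4]6 by edgeR (2.14 percent of all genes called). There, 12 proteasome genes and 2527 of all 16575 genes had an unadjusted p under 0.05. In 6[4]10, 3 rose (Psme1, Psme2 and Psmf1) and 3 fell (Psmc1, Psmd11 and Psme4), with 17.1 percent of all genes called. Psme1 rose in 2.6[8]10 (1.96 percent). Over all 6 comparisons under active siRNAs edgeR called 16 and DESeq2 18. For DESeq2 the share of all genes called was not worked out.

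Immunoproteasome subunits were followed separately. Psmb10, which replaces Psmb7, had group means of 17.3 to 21.8 CPM. In NTC mice of 2[4]6 it had 17.6, 20.03 and 21.95 CPM (lowest, median, highest) in zQ175 and 15.4, 18.2 and 18.9 in WT, with 7 of 8 zQ175 mice above all WT; the change was 0.20 ± 0.06 (adjusted p = 0.0345), and it was lost without the mice of any 1 number (highest adjusted p = 0.158). In HTT-10150 mice of 6[4]10 it went from 19.1 ± 1.63 to 21.75 ± 2.00 CPM (0.19, adjusted p = 0.0183). In the untreated mice its changes of 0.06, 0.10 and 0.14 did not pass (adjusted p = 0.718, 0.316 and 0.216). The lowest Psmb10 value of all libraries, 10.55 CPM, was that of the library low in hippocampal markers.

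Psmb8, which replaces Psmb5, had group means of 2.69 to 4.60 CPM. Untreated zQ175 mice had 2.19, 3.18 and 4.00 CPM in 2[4]6, 2.98, 3.67 and 4.23 in 6[4]10 and 3.25, 3.38 and 4.02 in 2.6[8]10; untreated WT mice had 1.79, 3.05 and 3.91, then 2.67, 3.01 and 3.62, then 2.46, 3.14 and 4.79. The ranges overlapped in each regimen, and the changes of 0.08 ± 0.13, 0.24 ± 0.13 and 0.11 ± 0.13 did not pass (adjusted p = 0.873, 0.246 and 0.68). Its mean was higher in zQ175 in all 12 genotype comparisons, with none called (adjusted p from 0.156 to 0.873). Psmb8 shares 14.7 percent of its exon bases with an antisense gene, Gm20496, and the strand setting of the counts is not given in the sources used here.

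Psmb9, which replaces Psmb6, had group means of 1.33 to 2.23 CPM. Untreated zQ175 mice had 0.748, 1.5 and 1.84 CPM in 2[4]6, 0.947, 1.22 and 1.92 in 6[4]10 and 0.805, 1.55 and 2.01 in 2.6[8]10. Untreated WT mice had 1.09, 1.38 and 2.09, then 1.22, 1.63 and 2.41, then 0.847, 1.48 and 1.92. Overlap was wide, with changes of -0.01 ± 0.19, -0.36 ± 0.16 and 0.03 ± 0.17 (adjusted p = 0.994, 0.142 and 0.951). No genotype or treatment comparison called Psmb8 or Psmb9. The changes of Psmb9 with NTC in 2.6[8]10 were 0.51 ± 0.17 in zQ175 and 0.50 ± 0.17 in WT (adjusted p = 0.134 and 0.174). Psmb9 shares 5.79 percent of its exon bases with Tap1 on the opposite strand.

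**Figure D4:**
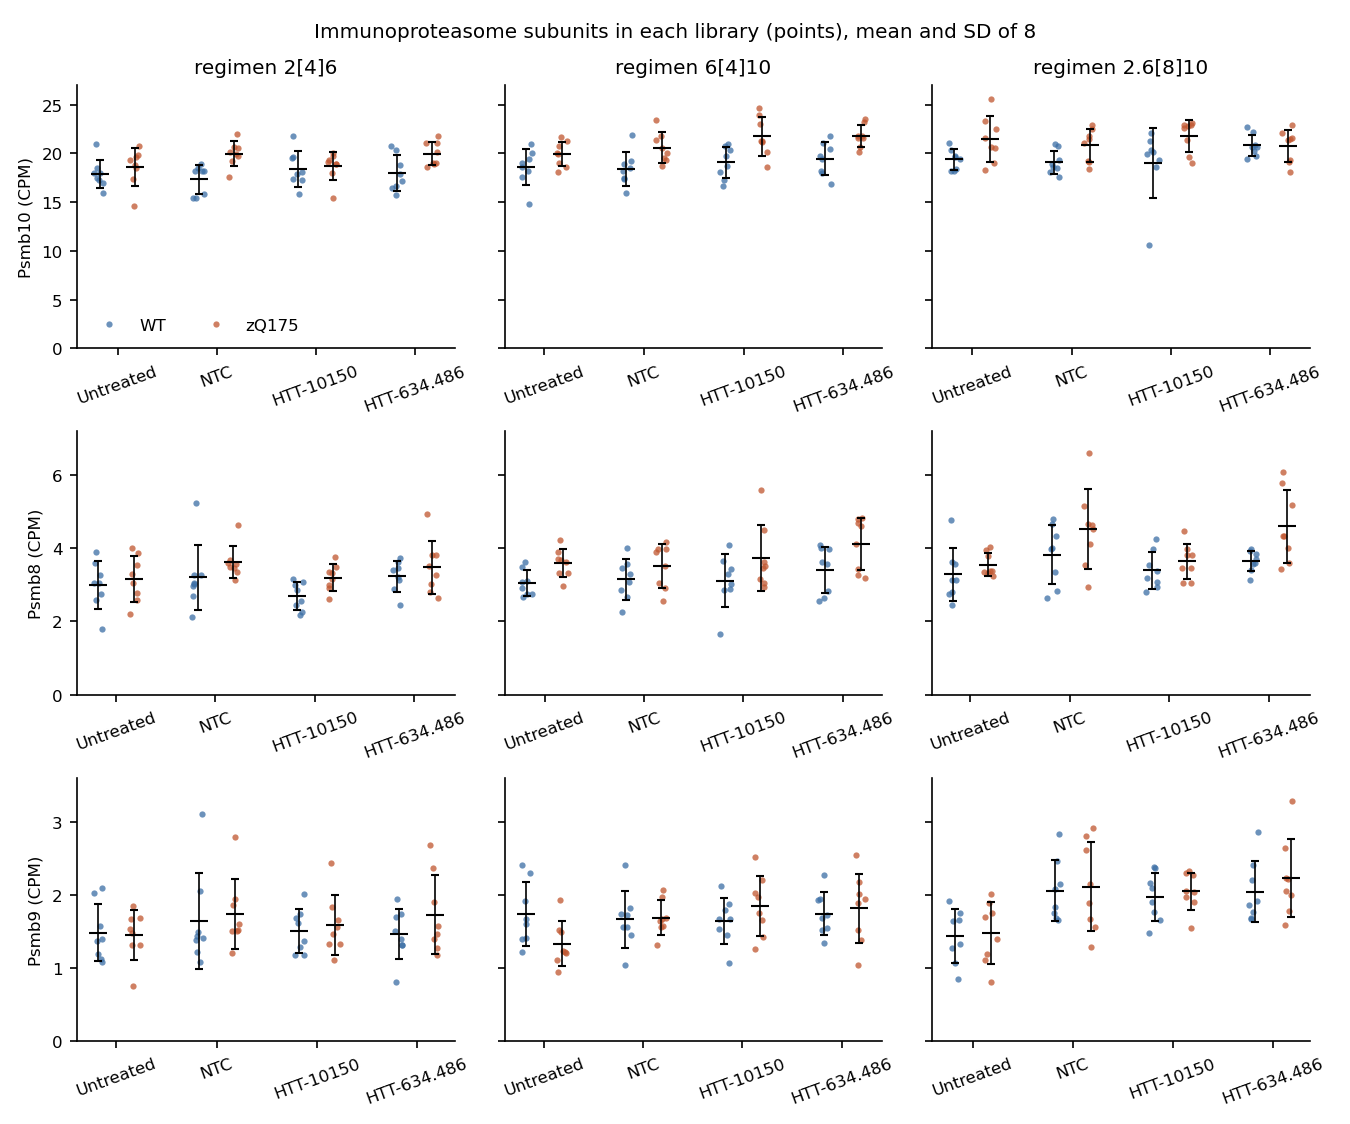
CPM (y axes, from 0) of Psmb10, Psmb8 and Psmb9 in each library by treatment (x axis) and genotype, 1 column per regimen; bars are the mean and SD of 8. Group means run from 17.3 to 21.8 CPM for Psmb10, from 2.69 to 4.60 for Psmb8 and from 1.33 to 2.23 for Psmb9; the lowest Psmb10 point, 10.55 CPM, is the library low in hippocampal markers.

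Lists around the proteasome, chosen with earlier results known, were read in the same comparison. Of 12 genes of the interferon response and antigen presentation, untreated zQ175 mice had 0, 2 and 2 called higher and none lower in 2[4]6, 6[4]10 and 2.6[8]10, where 4.15, 11.5 and 11.1 percent of all genes were called. With lists this short, nothing is read from the counts of this and the next 3 lists against those shares. The peptide transporter subunit Tap2 (0.36 ± 0.07) and the GTPase Irgm1 (0.32 ± 0.10) rose in 6[4]10, and Irgm1 (0.45 ± 0.12) rose in 2.6[8]10. Medians of the list were 0.01, 0.09 and 0.16, and its summed level had medians of 217, 238 and 247 CPM in zQ175 against 222, 220 and 223 CPM in WT. Summed over its 12 genes, it ranged from 204 to 263, from 223 to 275.5 and from 237 to 279 CPM in zQ175, and from 196 to 266.5, from 201 to 264 and from 199 to 275 CPM in WT. Under the active siRNAs in 6[4]10, Psme1 and Psme2 were both called. There, 6 of the 12 rose with HTT-10150 and 6 of the 12 with HTT-634.486, Irgm1 (0.48 in both) among them. Of all genes, 15.3 and 17.1 percent were called in these comparisons.

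Of 6 regulators of proteasome genes, Vcp, the segregase that extracts ubiquitinated proteins and acts in the release of Nfe2l1 to the nucleus, rose in 6[4]10 (0.12 ± 0.03, adjusted p = 0.00169) and 2.6[8]10 (0.18 ± 0.02, adjusted p = 4.85e-07), and the Nrf genes Nfe2l1 and Nfe2l2 were not called in untreated mice. Of 20 genes of ubiquitin supply and delivery, the conjugating enzyme Ube2l3 was the one called, higher in 6[4]10 (0.13 ± 0.02) and 2.6[8]10 (0.08 ± 0.02). Of 10 proteasome components with other names, the ubiquitin receptor Adrm1 rose in 2.6[8]10 (0.125 ± 0.03, adjusted p = 0.00788).

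Markers of other cells were read beside the rise of Psme1. In untreated mice, none of 10 microglial markers was called, with medians of 0.07, 0.08 and 0.03 and summed levels of 407 to 464, 421 to 528 and 443 to 524 CPM in zQ175 against 397 to 445, 403 to 497 and 414 to 485.5 CPM in WT. Of 8 neuronal markers, 3, 4 and 1 fell, and of 6 astrocyte markers 2 fell in each regimen. Of 6 hippocampal markers, 3 fell in each regimen (medians -0.24, -0.40 and -0.62). Of all genes, 4.15, 11.5 and 11.1 percent were called in these comparisons. None of 5 choroid plexus markers was called, and their sum ran from 24.4 to 3499 CPM in zQ175 and from 6.70 to 1722 CPM in WT of 6[4]10. In HTT-10150 mice of 6[4]10, where Psme1 and Psme2 were both called, 7 of 10 microglial markers rose (median 0.235; summed 485 to 684 CPM in zQ175 and 415.5 to 527 CPM in WT) and 4 of 8 endothelial markers fell (median -0.24). With HTT-634.486 in that regimen, 1 of 10 microglial markers rose (median 0.11; summed 479 to 570 CPM in zQ175 and 440 to 549 CPM in WT). With HTT-10150 and HTT-634.486 in 6[4]10, 15.3 and 17.1 percent of all genes were called. The part of these cells in the Psme1 and Psme2 values was not tested.

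Next, NTC was compared with no treatment, which asked what an siRNA without target does. By edgeR no proteasome gene was called in any of the 6 comparisons. DESeq2 called 4 over the 6 comparisons. Its share of all genes called was not worked out, so nothing is read from that count. At an unadjusted p under 0.05 there were 24, 2 and 7 proteasome genes in zQ175 mice of 2[4]6, 6[4]10 and 2.6[8]10. In WT mice there were 2, 9 and 17. Of all 16575, 16374 and 15852 genes tested, 2512, 612 and 1698 met that threshold in zQ175 and 614, 1244 and 1816 in WT. At the adjusted threshold, 0.0302, 0 and 1.02 percent of all genes were called in zQ175 and 0, 0 and 0.694 percent in WT. In zQ175 mice of 2[4]6, 46 of 49 proteasome genes lay above 0 with a median of 0.09 (median of all genes -0.0041). All 31 core subunits lay above 0, and no 95% interval of a core subunit reached past 0.23. In the same comparison 78 of 79 ribosomal protein genes (median 0.15) and 89 of 91 oxidative phosphorylation genes (median 0.13) also lay above 0. The part of this wider shift in the proteasome values was not tested.

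The comparison of HTT-10150 with NTC asked what lowering full-length Htt does. In zQ175 mice of 2[4]6, 4 of 49 genes fell (3.57 percent of all genes called): the caspase-like subunit Psmb6, the structural beta subunit Psmb3, the ATPase Psmc5 and Psme2. Psmb6 had 52.4, 67.8 and 69.9 CPM (lowest, median, highest of 8) with HTT-10150 and 69.8, 71.9 and 80.95 with NTC, and 7 of 8 mice lay below all NTC mice. Its log2 change was -0.17 ± 0.05 (adjusted p = 0.0347). Psmb3 had 45.1, 48.8 and 52.2 against 50.4, 53.3 and 61.3 CPM, again with 7 of 8 mice below (-0.15 ± 0.04, adjusted p = 0.0276). Psmc5 had 119.7, 126.5 and 133.7 against 131.3, 138.0 and 146.4 CPM, with 6 of 8 mice below (-0.11 ± 0.03, adjusted p = 0.0432). Psme2 had 15.5, 16.2 and 17.9 against 17.5, 18.7 and 20.5 CPM, with 7 of 8 below (-0.21 ± 0.06, adjusted p = 0.0247). All 4 calls were lost without the mice numbered 1 and all 4 without those numbered 4, and with the library-name number as a block the Psmc5 call was lost (-0.12 ± 0.04, adjusted p = 0.0753).

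These 4 genes stood at 67.2 ± 7.197, 48.8 ± 3.48, 126.3 ± 4.83 and 17.5 ± 1.09 CPM (Psmb6, Psmb3, Psmc5, Psme2) in untreated zQ175 mice, beside 65.3 ± 5.96, 48.6 ± 2.28, 126.9 ± 4.73 and 16.3 ± 0.770 CPM with HTT-10150 and 73.6 ± 4.13, 54.1 ± 3.48, 137.4 ± 5.22 and 18.8 ± 1.04 CPM with NTC. The NTC group stands on one side of both comparisons, so they are not independent. In WT mice the 4 changes with HTT-10150 were 0.02, 0.00, 0.04 and -0.01, and in zQ175 mice of the other regimens they lay between -0.040 and 0.044.

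Over all 49 genes of that comparison, 39 lay below 0 with a median of -0.08 (median of all genes -0.0009). All 7 alpha ring and all 7 beta ring subunits lay below 0, with the alpha ring at a median of -0.07, while the lid was split at 4 below and 4 above. In the same comparison 31 of 79 ribosomal protein genes fell (median -0.15), 6 of 91 oxidative phosphorylation genes fell (median -0.12), and all 8 endothelial markers rose (median 0.41; summed 180 to 240 CPM with HTT-10150, 121.7 to 176.0 with NTC and 168.1 to 211 untreated). Choroid plexus markers had a median of -1.04 with 0 of 5 called. Of all genes, 3.57 percent were called in this comparison. None of the endothelial markers was called in the other 5 HTT-10150 comparisons. The part of these lists in the fall of the subunits was not tested.

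Elsewhere HTT-10150 called 1 gene, Psmg4 in WT mice of 2.6[8]10 (3.41 percent of all genes called). It had 5.92, 6.73 and 9.72 CPM with HTT-10150 and 4.97, 5.71 and 6.27 with NTC, and 6 of 8 mice lay above all NTC mice (0.37 ± 0.09, adjusted p = 0.013). The highest value belonged to the library low in hippocampal markers, and without it the change was 0.29 ± 0.09 (adjusted p = 0.0746). Without the 9 libraries of low Ndufc2, the Psmg4 change was 0.35 ± 0.105 (adjusted p = 0.0621) and Psme4 was called lower. Untreated WT mice of the regimen had 6.76 ± 0.792 CPM of Psmg4, close to the HTT-10150 group. No proteasome gene was called in zQ175 of 6[4]10 and 2.6[8]10 (0.0672 and 0.871 percent of all genes called) or in WT of 2[4]6 and 6[4]10 (0.0664 and 0.0183 percent). Unadjusted p fell under 0.05 for 0, 1, 2 and 0 proteasome genes. Of all 16374, 15852, 16575 and 16374 genes tested, it did so for 1109, 1830, 980 and 1002. DESeq2 called 5 over the 6 HTT-10150 comparisons, as edgeR did.

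For HTT-634.486 against NTC, 2 genes fell, each in 1 comparison of zQ175 mice. Psmc1, an ATPase of the base, had 131.0, 134.4 and 141.3 CPM with the siRNAs and 138.4, 146.0 and 150.7 with NTC in 6[4]10, and 7 of 8 mice lay below all NTC mice (-0.11 ± 0.03, adjusted p = 0.0219; 1 of 48 genes, 0.959 percent of all genes called). Psmd1 had 118.4, 123.4 and 128.7 against 126.6, 133.5 and 141.6 CPM in 2.6[8]10, with 6 of 8 mice below (-0.11 ± 0.03, adjusted p = 0.0149; 1 of 48, 2.04 percent). The Psmd1 call was lost without the 9 libraries of low Ndufc2 (-0.11, adjusted p = 0.0607) and the Psmc1 call without the filter on low counts and with the library-name number as a block (-0.10 ± 0.03, adjusted p = 0.117). In 6[4]10, Psmd1 changed by -0.115 (adjusted p = 0.0702) and in 2[4]6 by -0.02. No proteasome gene was called in zQ175 of 2[4]6 (0.0302 percent) or in WT (0.0121, 0.0244 and 0.751 percent). There, 6, 2, 2 and 8 proteasome genes had an unadjusted p under 0.05. Of all 16575, 16575, 16374 and 15852 genes tested, 1038, 642, 1259 and 1824 did. DESeq2 called 4 over the 6 comparisons, with its share of all genes called not worked out.

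The siRNA effects were not shown to differ between genotypes. For the interaction of HTT-10150 with genotype, edgeR and DESeq2 called no proteasome gene (0, 0 and 0.0126 percent of all genes called). An unadjusted p under 0.05 was met by 14, 0 and 1 proteasome genes in 2[4]6, 6[4]10 and 2.6[8]10. Of all 16575, 16374 and 15852 genes tested, 2191, 811 and 945 met it. For HTT-634.486 the numbers were 1, 4 and 0 proteasome genes and 452, 1013 and 799 of all genes (0, 0 and 0.00631 percent called). The untreated genotype effect did not pass a test of difference between regimens either: edgeR and DESeq2 called no gene, with 0, 5 and 3 at an unadjusted p under 0.05 for 6[4]10 minus 2[4]6, 2.6[8]10 minus 2[4]6 and 2.6[8]10 minus 6[4]10 (0.0481, 0.138 and 0 percent of all genes called).

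Untreated WT mice, which received no siRNA, were compared between regimens. Against 2[4]6, age and processing cannot be told apart. Mice of 6[4]10 and 2.6[8]10 were both collected at 10 months, and what else sets these regimens apart was not tested. At 10 against 6 months (6[4]10 against 2[4]6) no proteasome gene was called by edgeR, with 0.331 percent of all genes called. An unadjusted p under 0.05 was met by 5 proteasome genes and by 2185 of all 16627. In 2.6[8]10 against 2[4]6, 4 of 49 genes were higher (Psmb5, Psmd7, Psme2, Psmg4) and 2 lower (Psma1, Psmd1), with 7.86 percent of all genes called. Psmb5, Psmg4, Psma1 and Psmd1 went the opposite way to their calls between untreated zQ175 and WT mice of 2.6[8]10. The same WT group enters both comparisons, so they are not independent. Against 6[4]10, a regimen of the same age, Psmd7 and Psmg4 were higher and Psma1 lower (4.07 percent). Psma1 had 60.6 ± 3.90 CPM in 2.6[8]10, 73.4 ± 2.02 in 2[4]6 and 73.1 ± 3.08 in 6[4]10, and 8 of 8 mice lay below all mice of either other regimen (-0.27 ± 0.04 in both, adjusted p = 2.29e-06 and 2.77e-06). Within 2.6[8]10, Psma1 had a median of 76.1 CPM in the 9 libraries of low Ndufc2 and 63.5 in the other 55. All 8 of these WT mice are among the 55, and the part of the library set in this difference was not tested. Psmg4 had 6.76 ± 0.792 against 5.49 ± 0.258 and 5.22 ± 0.425 CPM (0.31 and 0.37, adjusted p = 0.00706 and 0.00113). DESeq2 called 9 over the 3 comparisons, as edgeR did. The lid subunit Psmd7 had 98.9 ± 5.30 against 92.3 ± 4.05 and 92.7 ± 3.42 CPM (0.11 and 0.10), and Psmb5 had 88.7 ± 4.80 against 78.7 ± 5.82 CPM in 2[4]6 (0.18 ± 0.05, adjusted p = 0.0056).

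Differences between males and females were small. In 2[4]6, 7 of 49 genes were higher in males (6.71 percent of all genes called), all but Psmf1 of them core subunits. By smallest p these were Psma6 (70.2 ± 4.43 against 66.2 ± 3.17 CPM, 0.08 ± 0.02, adjusted p = 0.00436), Psmf1 (0.08, adjusted p = 0.011), Psmb2 (0.07, adjusted p = 0.0221) and Psmd1 (0.04, adjusted p = 0.0288). In 2.6[8]10 the ubiquitin receptor Psmd4 was called (0.055 ± 0.01, adjusted p = 0.0344, 1 of 48, 1.68 percent of all genes called). Without the 9 libraries of low Ndufc2 it changed by 0.06 ± 0.02 (adjusted p = 0.0773). In 6[4]10 edgeR called none (1.15 percent). An unadjusted p under 0.05 was met there by 0 proteasome genes and by 2330 of all 16374. DESeq2 called 10 over the 3 regimens, with its share of all genes called not worked out. Without the mice numbered 1, no sex call was left, and a difference between regimens was not tested.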

How the data were processed

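RNA of 192 mouse hippocampi was sequenced after polyA selection, 8 mice in each of 24 groups. The authors deposited expected counts per gene (RSEM on GRCm38, per the submitters' processing notes), and all values are whole numbers; aligner, versions, annotation release and strandedness: not given in the sources used here. Of 41128 features with an Ensembl identifier, 40254 were found in GENCODE vM21. The other 7 features, with 6.85e-06 percent of counts, were left out.

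Counts were tested per regimen with edgeR 4.0.16 (quasi-likelihood test, group plus sex, TMM factors, filterByExpr by group) in R 4.3.3 with limma 3.58.1, and p-values were adjusted by Benjamini-Hochberg over all genes, with 0.05 as the threshold. Differences between regimens came from 1 model over all libraries. SE were taken from the log2 change and its F statistic, and 95% intervals are 1.96 SE either way. DESeq2 1.42.0, size factors, no filter, blocks and left-out libraries were alternatives. For these only calls of proteasome genes were counted. Shares of all genes called belong to the main edgeR fit. The test was checked on simulated data. Beside sex and animal number, the library names carry a number that several mice share. What it stands for is not stated, and it was tried as a block where it could be fitted. The members and lists were chosen with earlier results of these data known. Genes named were the immunoproteasome genes, members called alike in untreated mice of at least 2 regimens, and up to 4 called members of smallest p per other comparison; list genes were named only where called. 1 gene of these lists is not reported here by name.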

Additional observations from a re-analysis of the deposited data

Results flagged for a closer look

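In 14 of 137 groups of 8 looked at for the genes described above, 1 library stood further from its nearest neighbour than the critical share of 0.526 of the group's range; chance alone flags about 1 group in 20. In 2[4]6, male_3 of WT NTC had 5.23 CPM of Psmb8 (others 2.11 to 3.28), and male_3 of zQ175 NTC had 4.64 CPM of Psmb8 (others 3.14 to 3.69) and 2.78 CPM of Psmb9 (others 1.203 to 1.95). Psmb10 was lowest at 10.55 CPM in female_1 of WT HTT-10150 in 2.6[8]10, the library low in hippocampal markers, and at 15.4 CPM in male_4 of zQ175 HTT-10150 in 2[4]6.

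For Psme1, single libraries were high in 5 groups: 33.8 CPM in untreated WT of 2[4]6 (female_4), and in 2.6[8]10 35.5 CPM in untreated WT (female_4), 40.5 CPM in WT NTC (female_3), 44.7 CPM in untreated zQ175 (male_4) and 46.6 CPM in zQ175 NTC (male_2). Psme2 was high at 17.9 CPM in zQ175 HTT-10150 of 2[4]6 (male_1) and at 20.1 CPM in the same female_4 of untreated WT in 2.6[8]10. Psmb5 was high at 99.6 CPM in male_4 of untreated WT and Psmg4 at 7.78 CPM in female_4 of untreated zQ175, both in 2.6[8]10.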

How the results depend on the processing

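Of 55 calls, 8 held under every alternative run, 47 were lost under at least 1, and 0 reversed. The 8 were Psme1 in 4 genotype comparisons, Psmd1 in untreated 2.6[8]10, and 3 between regimens in WT, 2 of Psma1 and 1 of Psmb5. Untreated WT of 2.6[8]10 held 0 of the 9 libraries of low Ndufc2. Leaving these out thus removed no mouse compared in those 3 calls and says little about them. Psme1 in 2[4]6, untreated and under either active siRNA, was called under none. Leaving out the mice of 1 number (2 of 8 per group) took most. Counts of calls over the regimens went, without the mice of 1 number, from 9 to between 3 and 7 for genotype in untreated mice, from 6 to 3 to 8 under NTC, from 16 to 8 to 12 under the active siRNAs, from 0 to 0 to 5 for NTC against untreated, from 5 to 0 to 4 for HTT-10150, from 2 to 0 to 2 for HTT-634.486, from 9 to 5 to 7 for WT between regimens and from 8 to 0 to 7 for sex. NTC against untreated gave 4 calls with DESeq2, 1 with the replicate block and 1 without the library low in hippocampal markers. HTT-634.486 gave 4 with DESeq2, 1 without the filter on low counts and 1 without the 9 libraries of low Ndufc2. Sex gave 4 without the filter. Without a filter, untreated genotype gave 6 calls. Interactions and differences of genotype effects between regimens gave 0 under every alternative.

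Animal numbers are not stated to pair mice, and same-numbered mice correlated at -0.47 to 0.31 in untreated mice, so the replicate block is given only here: 10 calls for untreated genotype (Psmd1 and Psme4 added in 6[4]10, Psmg4 dropped in 2.6[8]10), 7 under NTC, 18 under active siRNAs, 6 for HTT-10150 and 2 for HTT-634.486. With the library-name number as block, the siRNA comparisons lost Psmc5 (HTT-10150, 2[4]6) and Psmc1 (HTT-634.486, 6[4]10). For sex it could be fitted in 1 of 3 regimens. WT and zQ175 mice share no such number, so no genotype comparison could be fitted with it. Genotype and this number cannot be told apart. The leave-outs of low Ndufc2 and of the library low in hippocampal markers, and genotype under the active siRNAs, were chosen after seeing the data. Low counts limit Psme2b, Psma8, Psmc3ip, Psmb8 and Psmb9.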
